A study of Mus musculus with 6 samples.

Results

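Integrins and laminins were compared between tuft-like and non-tuft-like medullary thymic epithelial cells (mTEC) of the mouse. The 37 protein-coding genes whose symbols name an integrin alpha chain (18 genes), an integrin beta chain (8 genes) or a laminin chain (11 genes) were taken from a table of 52636 gene rows by symbol alone. All 37 passed the filter on low counts and were tested among 32496 genes.

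The study sorted both populations from thymi of C57BL/6 mice at 6 weeks of age and sequenced their RNA in bulk with an ultra-low input method (SMARTer), giving 3 libraries of each. Both were sorted as mTEClo, the fraction that the paper defines by low MHCII and low CD80. They bound the lectin UEA1 and lacked Sca1 and CD63. Tuft-like mTEC carried CD117, the product of Kit, and CD66a, the product of Ceacam1, whereas non-tuft-like mTEC carried neither. The gate that the study describes for these cells starts from CD45- EpCAM1+ cells, which leaves out leukocytes and non-epithelial stroma, although the labels of these libraries do not list that step. No genotype other than the strain, no treatment and no number of animals behind a library is given in the labels, so the tests measure the spread between libraries, which may be technical. In bulk RNA, fewer cells of a type and less RNA per cell cannot be told apart.

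Laminins are trimers of 1 alpha, 1 beta and 1 gamma chain and form the sheet of the basement membrane on which epithelial cells rest. Integrins are receptors made of 1 alpha and 1 beta chain. The pairs of Itga3 or Itga6 with Itgb1, and of Itga6 with Itgb4, bind laminin, the last of these in hemidesmosomes, the rivets that tie keratin filaments to the basement membrane. Pairs of Itgav with Itgb3, Itgb5, Itgb6 or Itgb8 bind matrix proteins and the latent form of TGF-beta, whereas pairs with Itgb2 or Itgb7 are best known from leukocytes. In the thymus, both families are known for the contacts of epithelial cells with matrix and with thymocytes.

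Genes of the tuft cell programme followed the labels, whereas of the sort marker genes Ceacam1 was called and the others were not. Dclk1, the kinase used as a tuft cell marker, had 24.8, 23.8 and 36.9 CPM (read counts normalized to equal library sizes) in non-tuft-like libraries 1, 2 and 3. The tuft-like libraries had 1270, 1644 and 1840 CPM. Ceacam1 rose with a log2 fold change of 4.12 ± 0.43 (standard error, n = 3 against 3), with a Benjamini-Hochberg false discovery rate (FDR) of 0.000886 in edgeR's quasi-likelihood test. Kit averaged 167 and 395 CPM with an FDR of 0.0678. None of Ly6a (Sca1), Cd63 and Cd80 passed the FDR of 0.05 that defines a call here, and their means were 80.0 against 35.2, 309 against 148 and 13.4 against 2.63 CPM, the non-tuft-like mTEC first. In these genes, whose products both populations were sorted to lack or, for CD80, to carry at a low level, the non-tuft-like libraries lay above the tuft-like ones without overlap. Of 18 tuft cell markers all 18 rose, among them Sh2d6 (log2 fold change 6.12), Sh2d7 (6.09), Dclk1 (5.80) and the most abundant, Avil (4.38). Of 10 thymic epithelial markers 3 fell and none rose. These were the regulator of tolerance Aire (-3.83), the basal keratin Krt14 (-3.49) and the epithelial transcription factor Foxn1 (-3.48), while the most abundant, Krt8, averaged 2465 and 3924 CPM without a call.

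The libraries differed in how many reads fell outside genes and in the level of the low integrins and laminins. Between 20097617 and 48369825 counts per library lay on genes, and the share of all counts assigned to no gene was 34.4%, 36.6% and 52.5% in non-tuft-like libraries 1, 2 and 3. In tuft-like libraries 1, 2 and 3 it was 61.6%, 47.6% and 19.7%. The 1092 olfactory receptor genes, genes of the nose, were used as a measure of low-level signal, although mTEC are known to express many tissue-restricted genes at low levels. They averaged 0.189, 0.204 and 0.466 CPM per exonic kb in the non-tuft-like libraries and 0.648, 0.369 and 0.0682 in the tuft-like ones. Tuft-like library 3 therefore stood apart at the low end, with tuft-like library 1 and non-tuft-like library 3 at the high end. A total of 20 members did not exceed the olfactory receptor 99th percentile in every library of either population. The median of these 20 was 0.710, 0.818 and 1.77 CPM per exonic kb in the non-tuft-like libraries and 1.48, 0.776 and 0.0151 in the tuft-like ones. Of them, 17 were lowest in tuft-like library 3 and 12 were highest in tuft-like library 1 or non-tuft-like library 3. A gene near 0 in tuft-like library 3 fails the percentile cut on the tuft-like side. The low values of the 20 in that library thus follow in part from how they were picked, and a link to reads outside genes was not tested.

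**Figure D1:**
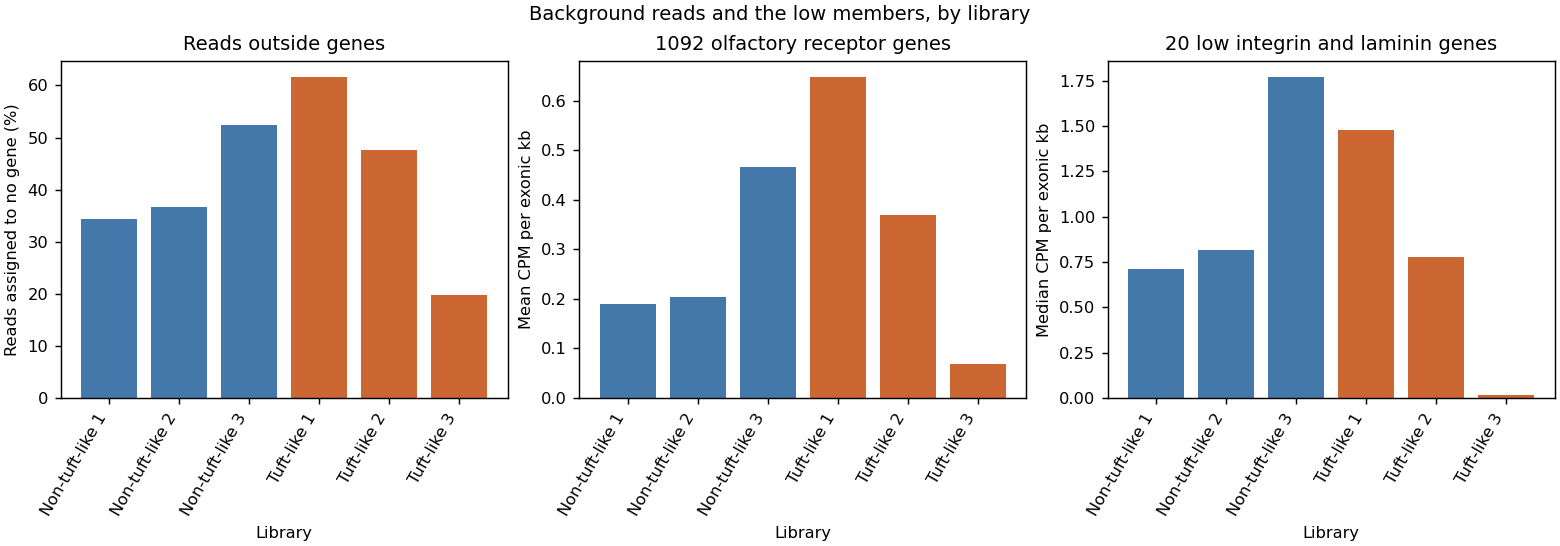
Bars give, for each of the 6 libraries, the percentage of counts assigned to no gene, the mean level of the 1092 olfactory receptor genes (CPM per exonic kb) and the median level of the 20 low integrin and laminin genes (CPM per exonic kb), with non-tuft-like libraries in blue and tuft-like libraries in orange. Tuft-like library 3 is lowest in all 3 panels, at 19.7%, 0.0682 and 0.0151. The last of these values follows in part from how the 20 genes were picked.

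Across the families, tuft-like mTEC had more RNA of the laminin chain Lamb1 and of the integrin chain Itgb6, and less of the laminin chain Lama3. These 3 of the 37 members were called: 2 were higher, where 1.16% of all tested genes were called higher, and 1 was lower, where 0.951% of all tested genes were called lower. Libraries of one population lay wholly above or below those of the other in 14 members (4 higher and 10 lower in tuft-like mTEC), against 16% of all tested genes. The median log2 fold change, tuft-like over non-tuft-like, was -0.23 over the 37 members and 0.0212 over all tested genes, and 26 members had a negative value. The members drew between 0.101% and 0.166% of the counts on genes in a library. At this group size the smallest p of an exact permutation test of 1 gene is 0.1.

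**Figure D2:**
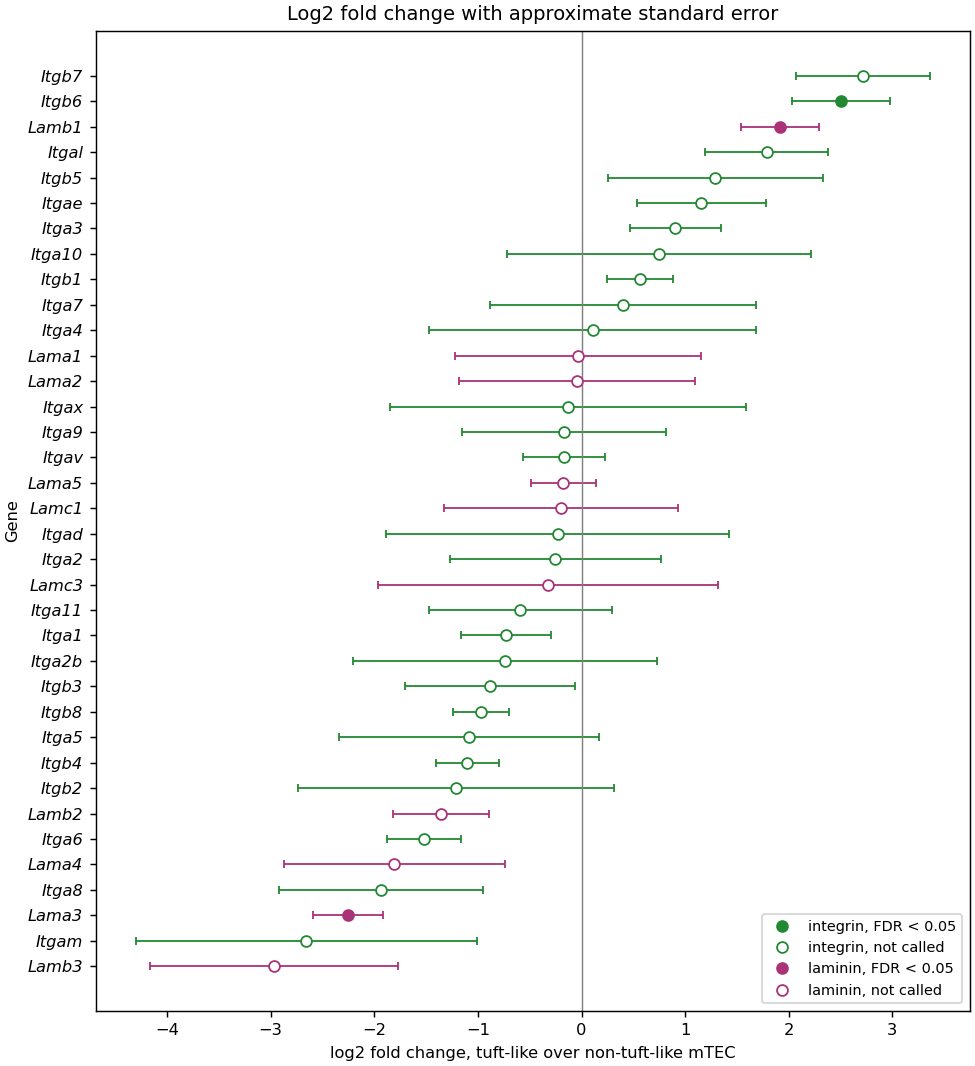
Points give the log2 fold change (tuft-like over non-tuft-like mTEC) of the members reported here with its approximate standard error, ordered by size, integrins in green and laminins in purple, filled where the edgeR FDR was under 0.05. The filled points are Itgb6 at 2.51, Lamb1 at 1.91 and Lama3 at -2.25.

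The sequences before the starts of the 2 genes called higher are shown as the regions from which these transcripts begin. They were taken from the RefSeq promoter table (GRCm38.p6), which held 26 promoters of 23 members, and stop where the first annotated exon begins. Itgb6 has 2 annotated starts on the minus strand of chromosome 2, and the counts per gene do not tell which was used. The first lies at chr2:60722644-60722853 and the second, inside the gene, at chr2:60673755-60673943. The Lamb1 sequence lies at chr12:31265043-31265233 on the plus strand. Capitals mark the GC box, GGGCGG on either strand.
Itgb6 first start: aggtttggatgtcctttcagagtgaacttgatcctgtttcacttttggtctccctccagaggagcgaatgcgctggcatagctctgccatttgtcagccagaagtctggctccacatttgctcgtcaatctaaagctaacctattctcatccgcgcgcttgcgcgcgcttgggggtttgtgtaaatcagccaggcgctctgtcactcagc
Itgb6 second start: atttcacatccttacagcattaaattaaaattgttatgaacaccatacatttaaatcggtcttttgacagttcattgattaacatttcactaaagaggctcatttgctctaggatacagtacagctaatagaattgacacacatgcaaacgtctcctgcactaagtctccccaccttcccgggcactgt
Lamb1: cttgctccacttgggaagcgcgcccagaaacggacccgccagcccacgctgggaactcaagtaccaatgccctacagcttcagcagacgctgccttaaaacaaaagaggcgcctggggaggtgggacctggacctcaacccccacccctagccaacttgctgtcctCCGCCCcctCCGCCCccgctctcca
Within the 250 bases upstream, the GC box occurred in 9 of the 26 promoters of members and in 32.7% of 32851 promoters of the table. The octamer ATGCAAAT occurred in 0 of the 26 (1.6% of all), the TATA box TATAAA in 0 (12.4%) and the AP-1 motif TGANTCA in 1 (6.75%), each searched on both strands. A match is a string of letters and not a shown binding site.

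Of the beta chains of laminins, Lamb1 was higher in tuft-like mTEC and no other was called. Lamb1 encodes the beta chain of many laminins and lies at chr12:31265234-31329644 of mm10. It had 48.4, 59.6 and 110.5 CPM in non-tuft-like libraries 1, 2 and 3, against 194, 327 and 301 CPM in tuft-like libraries 1, 2 and 3. All tuft-like libraries were above all non-tuft-like ones, and Lamb1 rose with a log2 fold change of 1.91 ± 0.38 (edgeR FDR 0.028, n = 3 against 3). The call did not hold when non-tuft-like library 1 or 2 or tuft-like library 2 or 3 was left out (FDR 0.102, 0.161, 0.103 and 0.061), with log2 fold changes from 1.69 to 1.80. Per exonic kb Lamb1 went from 7.34 ± 3.34 to 27.6 ± 7.08 CPM (SD, n = 3 each), the third highest mean level of all members in tuft-like mTEC.

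Lamb3, the beta chain of the hemidesmosomal laminin, had 47.0, 81.1 and 74.3 CPM in the non-tuft-like libraries and 12.4, 13.4 and 0 CPM in the tuft-like ones. The count of 0 in tuft-like library 3 allows a level of up to 0.0828 CPM (3 counts), which covers counting error only. The groups did not overlap, but with the spread that this library brings the log2 fold change of -2.97 ± 1.20 was not called (FDR 0.435). Without tuft-like library 3 it was -2.42 with an FDR of 0.00885. Lamb2, the beta chain of laminins around vessels, muscle and nerve, had 32.1, 19.0 and 49.8 CPM against 16.4, 13.7 and 9.42 CPM. Its groups did not overlap either, and its log2 fold change was -1.35 ± 0.46 (FDR 0.274).

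Counted per exonic kb, the makeup of the beta chain RNA differed between the populations. Lamb1 made up 30.9% ± 4.78 of the beta chain total in non-tuft-like and 88.2% ± 7.05 in tuft-like mTEC (SD, n = 3 each). The share of Lamb3 was 45.1% ± 10.8 and 4.41% ± 4.0, and that of Lamb2 24% ± 8.34 and 7.36% ± 3.35. The shares of 1 class add up to a whole, so they are no separate tests. The sum of the 3 beta chains was 17.3, 21.4 and 30.6 CPM per exonic kb in the non-tuft-like libraries and 24.2, 37.3 and 31.9 in the tuft-like ones, and these ranges overlapped.

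Among the alpha chains, which carry the main integrin binding site of a laminin, Lama3 was lower in tuft-like mTEC. Lama3 is the alpha chain that joins Lamb3 in the laminin of hemidesmosomes and lies at chr18:12333819-12583013 of mm10. It had 105, 149 and 92.2 CPM in the non-tuft-like libraries and 25.8, 16.5 and 30.3 CPM in the tuft-like ones. The groups were far apart, and Lama3 fell with a log2 fold change of -2.25 ± 0.34 (edgeR FDR 0.00632). It shares 197 exonic bases with Gm29200 on the opposite strand, and the strand setting of the counting is not given in the sources used here.

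The other alpha chains did not pass the test. Lama5, the most widespread epithelial alpha chain, had 44.0, 59.8 and 70.8 CPM against 67.4, 41.7 and 45.3 CPM, overlapping throughout. The share of Lama5 in the alpha chain RNA per exonic kb was 24.5% ± 5.4 in non-tuft-like and 48.0% ± 9.04 in tuft-like mTEC, and that of Lama3 50.8% ± 7.53 and 25.5% ± 13.6. Lama4, a chain of vessel walls, had 27.5, 52.7 and 22.7 CPM against 18.3, 11.0 and 0.138 CPM. Its groups did not overlap, yet the log2 fold change was -1.81 ± 1.07 (FDR 0.867), or -2.62 to -1.27 with 1 library left out, and its level was among the 20 low members. Lama1, the embryonic alpha chain, had 19.7, 3.45 and 19.4 CPM against 29.1, 12.2 and 0.166 CPM, and Lama2, the alpha chain of muscle, had 4.95, 9.98 and 25.8 CPM against 26.3, 13.1 and 0.221 CPM. In both genes the highest value was in tuft-like library 1 and the lowest in tuft-like library 3.

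Of the gamma chains, Lamc1, the gamma chain with which Lamb1 usually pairs, had 11.6, 8.86 and 24.8 CPM against 24.2, 15.1 and 0.138 CPM, which put it among the 20 low members. Per exonic kb the tuft-like mean was 27.6 ± 7.08 CPM for Lamb1 and 1.59 ± 1.47 CPM for Lamc1. Lamc3, a gamma chain of restricted use, was under 10 CPM in the mean of both populations.

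**Figure D3:**
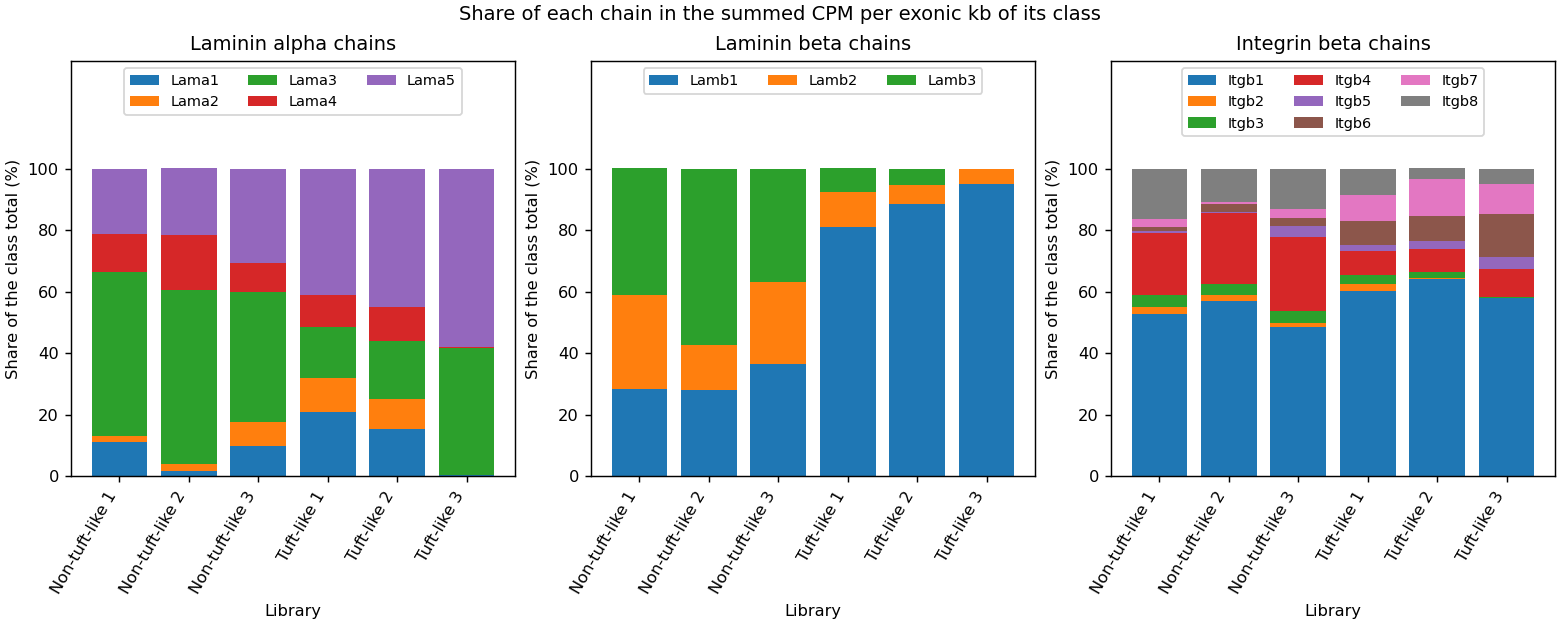
Stacked bars give, for each of the 6 libraries, the share (%) of each chain in the summed CPM per exonic kb of the laminin alpha, laminin beta and integrin beta chains. In tuft-like libraries Lamb1 takes most of the laminin beta bar, with a mean of 88.2% against 30.9% in non-tuft-like libraries.

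Lama3 and Lamb3 thus both had their tuft-like libraries below their non-tuft-like ones, and Lama3 was called. In 7 of 10 epidermal markers the tuft-like libraries also lay below the non-tuft-like ones, while Krt10, Lor and Krt6a overlapped. Of 10 keratinocyte markers 4 fell and none rose: Flg (log2 fold change -3.85), Sbsn (-3.33), Ivl (-3.23) and Dmkn (-3.09), all proteins of the differentiated epidermis. Their summed level was 3270, 5233 and 5413 CPM in the non-tuft-like libraries and 153, 511 and 1349 CPM in the tuft-like ones, the most abundant gene being Krtdap, with 1609 and 188 CPM in the mean. The part of such cells in the laminin result was not tested.

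Of the integrin chains that bind laminin in epithelia, none of Itga6, Itgb4, Itga3 and Itgb1 passed the test. Itga6, whose pairs with Itgb1 and Itgb4 are laminin receptors, had 70.0, 132 and 70.9 CPM in the non-tuft-like libraries and 42.1, 26.5 and 26.5 CPM in the tuft-like ones. The groups did not overlap, and the log2 fold change of -1.52 ± 0.36 just missed the threshold (FDR 0.0629). With 1 library left out the FDR ran from 0.0447 (without tuft-like library 1, log2 fold change -1.78) to 0.372 (without non-tuft-like library 2, -1.16). Itgb4, which encodes CD104 and pairs with Itga6 only, had 91.1, 134.7 and 122.4 CPM against 38.5, 65.7 and 57.7 CPM. Again no library overlapped, with a log2 fold change of -1.10 ± 0.30 (FDR 0.125). Itgb4 shares 537 exonic bases with B230344G16Rik on the other strand.

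Itga3 and Itgb1, which together form the other main laminin receptor of epithelia, had positive log2 fold changes without a call. Itga3 had 51.1, 146 and 131 CPM against 118, 210.1 and 287 CPM, with a log2 fold change of 0.91 ± 0.44 (FDR 0.645). Itgb1, the beta chain shared by most matrix receptors, had 137, 194 and 144 CPM against 170.4, 319 and 213 CPM and a log2 fold change of 0.56 ± 0.32 (FDR 0.812). In both genes the groups overlapped. Per exonic kb, Itgb1 was the most abundant member in both populations (38.8 ± 7.59 and 57.4 ± 18.8 CPM). Itga3 was second in tuft-like mTEC with 35.9 ± 14.8 CPM, against 19.2 ± 8.95 CPM in non-tuft-like mTEC. Of the alpha chain RNA per exonic kb, Itga3 took 35.3% ± 7.54 and 53.8% ± 17.4, and Itga6 20.1% ± 6.69 and 5.55% ± 2.33, non-tuft-like first. Itgb4 took 22.5% ± 1.87 of the beta chain RNA in non-tuft-like and 8.26% ± 0.785 in tuft-like mTEC.

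Calls among other genes of the hemidesmosome and of the basement membrane went both ways. Of 6 hemidesmosome genes tested, only Krt14 fell and none rose, and the most abundant, the linker Dst, averaged 246 and 370 CPM (log2 fold change 0.59, FDR 0.710). Their median log2 fold change was -0.482. Of 18 basement membrane partners tested, 1 rose and 2 fell, with a median of 0.0387. The collagen IV chain Col4a4 rose from 6.93 ± 5.19 to 92.8 ± 15.9 CPM (log2 fold change 3.74 ± 0.67, FDR 0.0173), whereas the collagen IV chain Col4a1 fell from 288 ± 19.9 to 97.0 ± 44.5 CPM (-1.57 ± 0.35, FDR 0.0482). Sdc1, a heparan sulfate proteoglycan of the cell surface, fell with a log2 fold change of -2.34 ± 0.39 (FDR 0.012). Its relative Sdc4, the most abundant gene of that list, averaged 194 and 411 CPM (FDR 0.156).

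Among the integrins that bind latent TGF-beta, the beta partners Itgb6 and Itgb8 stood apart between the populations in opposite directions, while the libraries of Itgav overlapped. Itgb6, the epithelial partner of Itgav, lies at chr2:60598292-60722643 of mm10 and had 5.68, 15.5 and 13.6 CPM in the non-tuft-like libraries. It had 38.8, 68.7 and 90.7 CPM in tuft-like libraries 1, 2 and 3. Every tuft-like library was above every non-tuft-like one, and Itgb6 rose with a log2 fold change of 2.51 ± 0.47 (edgeR FDR 0.0226). The FDR was 0.0666 without tuft-like library 2 and 0.0622 without tuft-like library 3, with log2 fold changes of 2.48 and 2.17. Itgb8, the other partner known to act on TGF-beta, had 116, 99.4 and 105 CPM against 67.1, 46.8 and 49.6 CPM. These groups did not overlap, and the log2 fold change was -0.97 ± 0.27 (FDR 0.133).

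Itgav itself had 26.6, 38.8 and 56.4 CPM against 27.0, 52.3 and 29.0 CPM, with a log2 fold change of -0.17 ± 0.40 (FDR 1). Its libraries overlapped fully. Itgb3, a partner of Itgav and of the platelet chain Itga2b, had 14.8, 18.5 and 16.7 CPM against 12.03, 14.18 and 0.911 CPM. The groups did not overlap, though tuft-like library 3 set most of the difference (log2 fold change -0.88, FDR 1, and -0.39 without that library). Itgb5 was under 10 CPM in the mean of both populations. Of the beta chain RNA per exonic kb, Itgb6 took 2.17% ± 0.794 in non-tuft-like and 10% ± 3.64 in tuft-like mTEC, and Itgb8 took 13.4% ± 2.86 and 5.74% ± 2.72. The 7 platelet and megakaryocyte markers tested gave no call, and their sum with Gp1bb was 9.91, 6.26 and 17.8 CPM against 14.22, 14.97 and 11.35 CPM.

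Of the integrin chains of lymphocytes, Itgb7, Itgal and Itgae were above the olfactory receptor 99th percentile in all 3 tuft-like libraries. Among the non-tuft-like libraries Itgal was above it in 2, Itgae in 1 and Itgb7 in 0. Itgb7, which pairs with Itga4 or Itgae, had 4.51, 1.66 and 6.10 CPM in the non-tuft-like libraries and 15.8, 40.7 and 24.1 CPM in the tuft-like ones. The groups did not overlap, and the log2 fold change of 2.72 ± 0.65 just missed the threshold (FDR 0.0685). Itgal, the alpha chain of LFA-1, had 18.1, 5.02 and 25.6 CPM against 26.5, 79.0 and 62.4 CPM, with a log2 fold change of 1.79 ± 0.59 (FDR 0.247). Its groups stood apart by less than 1 CPM. Itgae, the chain CD103 that binds E-cadherin with Itgb7, had 4.35, 6.004 and 16.6 CPM against 28.1, 17.2 and 14.8 CPM, which overlapped (log2 fold change 1.16, FDR 0.768). Itgb2, the only beta partner of Itgal, stayed under 5 CPM in every library, with 4.26, 4.51 and 2.701 CPM against 4.38, 0.555 and 0.0276 CPM. Itga4 had 3.28, 1.60 and 6.61 CPM against 8.43, 3.95 and 0 CPM, which overlapped.

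Leukocyte markers are given beside these genes because the chains are typical of such cells, which a CD45- gate would remove. Of 11 T lineage markers tested none was called, and their median was -0.149 on the log2 scale. The sum of all 12 listed was 23.6, 43.8 and 29.3 CPM in the non-tuft-like libraries and 63.1, 39.4 and 44.6 CPM in the tuft-like ones. The most abundant over all 6 libraries was Themis, with 2.15, 5.45 and 3.21 CPM against 18.7, 14.0 and 33.4 CPM (log2 fold change 2.61, FDR 0.0734), and the defining Cd3e had 4.92, 0.937 and 4.42 CPM against 7.19, 4.38 and 0.0552 CPM. In tuft-like library 3, where low genes were generally near 0, Cd3d, Cd8a, Cd8b1 and Ptcra were at 0, while Rag1, Lck, Dntt and Cd3g had 3.29, 2.62, 2.49 and 2.26 CPM. Of 7 pan-leukocyte markers none was called. Their sum was 590.4, 555 and 414 CPM against 400.3, 516 and 669 CPM, with Laptm5 the most abundant, and Ptprc (CD45) had 3.41, 10.9 and 11.7 CPM against 33.7, 27.6 and 8.31 CPM. Of 7 B lineage markers only Cd79b rose (log2 fold change 3.20), with a sum over the list of 21.4, 31.4 and 31.3 CPM against 70.4, 103 and 102 CPM, while Cd79a and Blk were at 0 in tuft-like library 3. The part of lymphocytes in the levels of Itgb7, Itgal and Itgae was not tested.

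The remaining alpha chains at or above 10 CPM were low for their length. Itga1, a collagen receptor chain, had 39.8, 27.1 and 36.0 CPM against 33.0, 12.4 and 16.7 CPM and a log2 fold change of -0.73 ± 0.43 (FDR 0.868). It has the most exonic sequence of the 37 members, 18599 bases against a median of 7015, and per exonic kb it reached 1.84 ± 0.348 and 1.11 ± 0.584 CPM. Itga5, the fibronectin receptor chain, had 3.06, 14.6 and 15.4 CPM against 11.8, 3.71 and 0.0828 CPM. Itga7, a laminin receptor chain of muscle, had 3.19, 6.62 and 15.3 CPM against 18.6, 14.4 and 0.0552 CPM. Itga8, which binds nephronectin, had 5.24, 18.8 and 17.5 CPM against 6.94, 3.48 and 0.442 CPM (log2 fold change -1.94 ± 0.98, FDR 0.694). In each of these chains the groups overlapped.

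**Figure D4:**
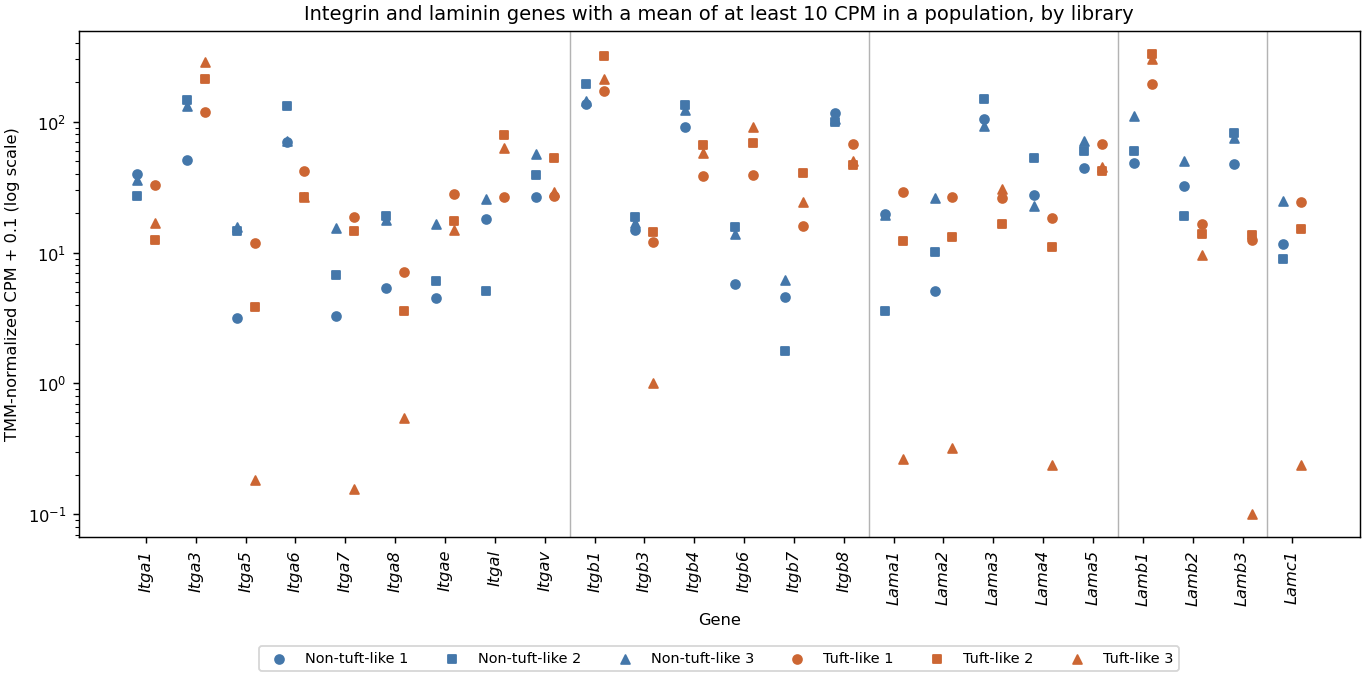
Points give TMM-normalized CPM plus 0.1 on a log axis in each of the 6 libraries (shape by library number, blue for non-tuft-like, orange for tuft-like) for the members reported here whose mean reached 10 CPM in a population. Tuft-like library 3 (orange triangles) holds all of the values below 1 CPM, down to Lamb3 at 0. Itgb6, Itgb7, Lamb1 and, narrowly, Itgal lie above the blue points in all 3 tuft-like libraries.

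The other 12 members were under 10 CPM in the mean of both populations. They were Itga2, Itga2b, Itga4, Itga9, Itga10, Itga11, Itgad, Itgam, Itgax, Itgb2, Itgb5 and Lamc3, with means from 0.77 to 9.31 CPM. None was called (lowest FDR 0.912), and in 1 of them, the myeloid chain Itgam, the groups did not overlap. Itgam had 3.57, 6.004 and 4.99 CPM against 1.90, 0.409 and 0 CPM, and shares 3450 of its 5024 exonic bases with Gm49368 on the same strand. In tuft-like library 3, 7 members were at 0 counts (Itga2b, Itga4, Itgad, Itgam, Itgax, Lamb3 and Lamc3) and 10 had 3 counts or fewer, whereas no member was at 0 in any other library. Of 12 macrophage and dendritic cell markers, Cd68 fell (log2 fold change -3.30) and none rose. Their sum was 419, 353 and 279 CPM against 219, 165 and 271 CPM, with Lyz2 the most abundant.

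Set against the olfactory receptor level, 7 members were above its 99th percentile in all 6 libraries, namely Itga3, Itga6, Itgb1, Itgb4, Itgb8, Lama5 and Lamb1. Another 6 were above it in all 3 non-tuft-like but not all 3 tuft-like libraries (among them Itgav, Itgb3, Lama3, Lamb2 and Lamb3), and 4 in all 3 tuft-like but not all 3 non-tuft-like libraries (Itgae, Itgal, Itgb6 and Itgb7). The percentile itself ran from 1.26 to 2.78 CPM per exonic kb and was lowest in tuft-like library 3. These counts describe levels and are not tests of a difference.

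Among ligands of integrins other than laminins, Vcam1 and Icam1 were lower and Tnc was higher in tuft-like mTEC. Of 22 tested, 1 rose and 2 fell, and the median was -0.251 on the log2 scale. Tnc, the matrix protein tenascin C, averaged 714 ± 228 and 2658 ± 275 CPM (log2 fold change 1.90 ± 0.39, FDR 0.0358) and was the most abundant of the list. Vcam1, the ligand of Itga4 pairs, fell from 256 ± 51.9 to 33.7 ± 9.45 CPM (-2.92 ± 0.33, FDR 0.00132). Icam1, the ligand of LFA-1, fell from 383 ± 51.6 to 57.9 ± 6.40 CPM (-2.72 ± 0.28, FDR 0.000886). Of 32 adaptors and signalling genes, only the actin crosslinker Flna fell (-2.69 ± 0.33, FDR 0.00207) and none rose. Their median was -0.228, and Actn4, the most abundant, averaged 502 and 454 CPM (FDR 1).

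Of the markers of stromal cells that make laminins, Tek rose, Rgs5 fell and no other was called. Of 9 fibroblast markers none was called, with a sum of 55.9, 52.6 and 94.7 CPM in the non-tuft-like libraries and 203, 97.6 and 42.6 CPM in the tuft-like ones. Dcn was the most abundant. In tuft-like library 3 Col3a1 and Dpt were at 0, while Pdgfrb, Pdgfra and Dcn had 24.03, 7.15 and 6.16 CPM. Of 8 endothelial markers, Tek rose from 22.2, 36.7 and 11.4 CPM to 169, 142 and 225 CPM (log2 fold change 2.93), whereas Flt1, the most abundant of them in non-tuft-like mTEC, had 45.3, 93.6 and 92.2 CPM against 34.9, 16.8 and 11.99 CPM without a call (-1.86, FDR 0.0773). The 8 genes had a sum of 87.1, 161 and 140 CPM against 424, 198 and 243 CPM. Pecam1, a defining endothelial gene, had 8.99, 7.98 and 5.02 CPM against 106, 8.16 and 3.07 CPM, and Emcn was at 0 in tuft-like library 3. Of 8 pericyte and smooth muscle markers, the most abundant, Rgs5, fell (-3.10), with a sum of 272, 433 and 384 CPM against 82.1, 49.7 and 46.3 CPM. The part of stromal cells in the values of Lamb1, Lama4, Lamb2 and Itga8 was not tested.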

How the data were processed

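The authors made libraries with the SMARTer ultra-low input kit. Per the submitters, reads went through Trimmomatic 0.36, STAR 2.7.3a on mm10 and HTSeq in its intersection-nonempty mode. The table they deposited holds whole read counts per gene without normalization for the 6 libraries. Annotation release and strand setting are not given in the sources used here. The RNA source is trizol in the paper and a Qiagen column in the labels. The 92 ERCC rows were at 0, and the 5 HTSeq summary rows were left out of library sizes and tests. GENCODE M21 (mm10) named 99.72% of gene rows and gave exonic lengths. The unnamed rows held 0.0164% of counts.

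The tools were edgeR 4.0.16, DESeq2 1.42.0 and limma 3.58.1 under R 4.3.3. Genes kept by filterByExpr (minimum count 10, minimum total 15) were scaled by TMM and tested over the whole table with edgeR's quasi-likelihood F-test, Benjamini-Hochberg adjustment and an FDR of 0.05. A standard error is the size of a log2 fold change over the square root of its F, an approximation. The script was tested on simulated data. Depth limits a count of 0 to 0.0639 to 0.124 CPM per library (3 counts, counting error only, since reads are not independent molecules).

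Members and lists were chosen with earlier results of these data known. Values in every library are given for members called or at 10 CPM or more, and from each list the called genes (at most 4) and the most abundant one by its mean over the 6 libraries. Marker genes at 0 in tuft-like library 3, the markers set beside them and Ptprc, Cd3e and Pecam1 were chosen after seeing their values. Some genes that these rules select are counted but not reported here. Alternatives were RLE factors, library size only, DESeq2, limma voom, 3 filters, a block for the replicate number, a length offset, subtraction of background counts, each library left out, an FDR of 0.01 and levels per longest transcript.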

Additional observations from a re-analysis of the deposited data

How the results depend on the processing

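Lama3 was called lower under all 16 alternatives run for it (log2 fold change -2.49 to -2.02), Itgb6 higher under 14 of 16 (2.16 to 2.78) and Lamb1 higher under 12 of 16 (1.69 to 2.31). The exceptions among these were fits that leave out 1 library, and at an FDR of 0.01 in the reported fit neither Itgb6 nor Lamb1 was called. The members called numbered 3 in the reported fit and 8 with DESeq2, 5 with limma voom, 8 without a filter, 6 at a mean of at least 10 CPM, 6 with background counts subtracted, 1 at an FDR of 0.01, and 1 to 4 with 1 library left out, the 1 being Lama3 without tuft-like library 2. All genes called numbered 687 and became 1045 with library size only, 1904 with DESeq2, 1127 without a filter, 1547 at a mean of at least 10 CPM, 1058 with background counts subtracted, 319 at an FDR of 0.01, and 376 to 922 with 1 library left out. The causes were not tested. The members added by these settings included Itga6, Itgal, Itgam, Itgb4, Itgb7, Itgb8 and Lamb3.

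The median log2 fold change of all genes was 0.0212 and moved to 0.173 with the length offset, -0.17 with limma voom, 0.146 without non-tuft-like library 3, 0.145 without tuft-like library 3 and -0.195 without tuft-like library 1. A direction was kept by 25 members throughout and turned in 12, none of them called. Lama1 and Lama2 turned to 0.0389 and 0.0254 with RLE factors, 0.117 and 0.0715 with library size only, 0.0394 and 0.0259 with DESeq2, and 0.169 and 0.111 at a mean of at least 10 CPM. Itga7 and Itga4 turned to -1.76 and -2.19 with limma voom, Itgax to 0.0205 with the length offset and Itga4 to -0.717 with background counts subtracted. With 1 library left out, log2 fold changes ran from -1.19 to 0.504 for Lama1, -1.03 to 0.809 for Lama2, -0.984 to 0.354 for Lamc1, -0.892 to 1.52 for Lamc3, -1.63 to 0.242 for Itga2, -0.951 to 0.759 for Itga4, -0.206 to 1.15 for Itga7, -0.684 to 0.332 for Itga9, -0.31 to 1.89 for Itga10, -2.19 to 0.315 for Itgad, -0.537 to 0.113 for Itgav and -1.59 to 1.06 for Itgax.

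The sources used here do not say whether libraries with the same number share animals or a day, and the libraries did not deviate together by number. The correlation of deviations from the group means was -0.156, -0.061 and -0.326 for numbers 1, 2 and 3. With the replicate block 737 genes and 4 members were called, and Lamc3, Itga4 and Itgax turned to 0.513, -0.246 and 0.135. By the longest transcript instead of all exons, 10 of the 10 highest members were shared in non-tuft-like and 9 in tuft-like mTEC.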
